A study of Mus musculus with 6 samples.

Results

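The receptors for the constant part of IgG were followed in blood neutrophils sorted by surface Ly6C. They comprised the 4 ligand-binding chains Fcgr1, Fcgr2b, Fcgr3 and Fcgr4, the signalling chain Fcer1g and Fcgrt, which encodes FcRn. These 6 genes were listed by name, by function and not by any measured value, and all 6 were found among the 35853 genes with quantified transcripts. The libraries came from Ly6G+ cells of wild-type BALB/C mice, 4 weeks after 4T1 mammary carcinoma cells had been placed orthotopically. There were 3 Ly6C-high and 3 Ly6C-low libraries. Every mouse carried a tumour, so both groups share that treatment, and no tumour-free group was analysed here. Neither the number of mice nor any pooling is given in the labels, so p-values measure no more than the scatter among these libraries, and that scatter may be technical.

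Fc gamma receptors bind IgG on coated particles and immune complexes. The activating mouse receptors Fcgr1, Fcgr3 and Fcgr4 reach the surface and signal through a shared partner, the FcR gamma chain encoded by Fcer1g, whose tyrosine motif (ITAM) recruits the kinase Syk once Src-family kinases have phosphorylated it. Fcgr2b is the inhibitory receptor: its own tail carries an inhibitory motif (ITIM) that recruits the lipid phosphatase encoded by Inpp5d. FcRn, a relative of MHC class I that pairs with B2m, binds IgG in acidic endosomes and returns it to the cell surface.

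The stretches of coding sequence that carry this division are shown first. In the translated main coding transcript of each of the 6 genes, the ITAM pattern (a pair of tyrosine-x-x-leucine or isoleucine units with 6 to 12 residues between them) was found in 1 gene, Fcer1g, at codons 65 to 79 of 86. The ITIM of Fcgr2b was found at codons 270 to 275 of 293. That shorter pattern also matched elsewhere in 4 of the other genes, so a match alone is a description. Capitals mark the tyrosine and leucine codons of the ITAM, and the 3 defining codons of the ITIM; sequences are from the GENCODE M21 transcripts.
Fcer1g ITAM region: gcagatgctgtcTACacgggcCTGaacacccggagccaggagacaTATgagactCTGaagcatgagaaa
Fcgr2b ITIM region: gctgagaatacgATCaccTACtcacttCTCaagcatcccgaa

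The ligand-binding chains can be told apart by short reads over most of their length, with an exception. The coding sequences of Fcgr2b and Fcgr3, both on chromosome 1, were identical at 87.8% of 730 aligned bases, where the other 5 pairs of ligand-binding chains lay between 59.3% and 65.5%. Their longest identical run was 129 bases, longer than the 75 cycles of a read, and it is shown because reads within it fit both genes.
Fcgr2b and Fcgr3 shared run: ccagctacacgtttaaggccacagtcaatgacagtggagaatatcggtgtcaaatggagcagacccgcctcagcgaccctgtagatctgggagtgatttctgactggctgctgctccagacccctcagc
Of the words of 31 bases in the transcripts, 233 were shared by the pair, which is 4.15% of those in Fcgr2b and 13.4% of those in Fcgr3. The division of reads between Fcgr2b and Fcgr3 is therefore uncertain within that shared part. Fcgr3 had 11231 to 15481 counts per library, against 641 to 937 for Fcgr2b. The same number of misassigned reads would thus weigh far more on Fcgr2b, beyond what its share of words shows. Fcgr1 and Fcer1g shared 0 words with any other gene.

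The 6 genes spanned more than 3 orders of magnitude, and their order by TPM (a level per transcript length that sums to the same total in each library) was the same in 6 of 6 libraries. Fcer1g was the most abundant, at 1272 ± 22.5 TPM in the Ly6C-high and 1334 ± 88.9 TPM in Ly6C-low libraries (SD, n = 3 each). Fcgr3, the low-affinity activating receptor, followed at 693 ± 22.0 TPM in Ly6C-high and 658 ± 48.3 TPM in Ly6C-low libraries. Fcgr4, an activating receptor with preference for IgG2a and IgG2b, had 260 ± 15.4 TPM in Ly6C-high and 297 ± 7.95 TPM in Ly6C-low libraries. Fcgr2b lay well under both activating receptors, at 35.6 ± 3.05 TPM in the Ly6C-high and 30.1 ± 1.03 TPM in the Ly6C-low libraries. Fcgrt was far lower, at 1.33 ± 0.489 TPM in Ly6C-high and 1.09 ± 0.576 TPM in Ly6C-low libraries. Fcgr1, the high-affinity receptor, was the lowest, at 0.360 ± 0.0224 TPM in Ly6C-high and 0.422 ± 0.0636 TPM in Ly6C-low libraries. Neighbours in this order stood apart in every library: the smallest ratio was 1.46, of Fcgrt over Fcgr1, and the next 1.82, of Fcer1g over Fcgr3. The place of Fcgrt above Fcgr1 rested on a transcript with a retained intron. Its only detected coding transcript averaged 0.029 TPM over the 6 libraries, below the coding transcript of Fcgr1 at 0.344 TPM.

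**Figure D1:**
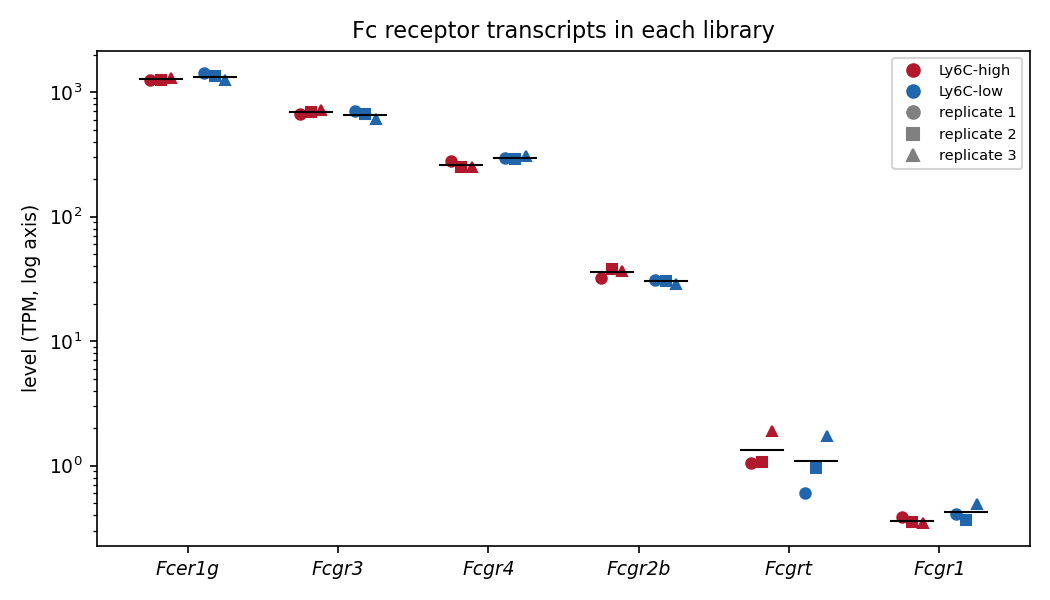
Level of each gene in TPM (log axis) in every library, with Ly6C-high left of Ly6C-low for each gene, symbols for the replicate numbers and a bar at each group's mean. Fcer1g, Fcgr3 and Fcgr4 lie at 250 TPM or above in all 6 libraries, Fcgr2b between 29.0 and 38.0 TPM, and Fcgrt and Fcgr1 at 1.90 TPM or below.

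Fcgr3 and Fcgr4 made up nearly all ligand-binding transcripts. Fcgr3 held 70.1% ± 1.53 of the summed TPM of the 4 chains in the Ly6C-high and 66.7% ± 1.95 in Ly6C-low libraries (SD, n = 3 each), and Fcgr4 held 26.3% ± 1.78 in Ly6C-high and 30.2% ± 1.92 in Ly6C-low libraries. The inhibitory Fcgr2b held 3.60% ± 0.30 in the Ly6C-high and 3.05% ± 0.04 in the Ly6C-low libraries, and Fcgr1 between 0.03% and 0.05% in all 6.

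None of the 6 genes passed the test between the groups. Counts were tested with edgeR's quasi-likelihood test over the 11406 genes kept by the filter on low counts, and all 6 genes were kept. At a Benjamini-Hochberg adjusted p of 0.05, 0 of the 6 were called, against 4 of all genes tested (0.0351%), and limma voom also called 0 of the 6. DESeq2, which gave no adjusted p for Fcgr1 and Fcgrt, called 0 of the other 4. At an unadjusted p under 0.05 there was 1, Fcgr2b, where 14.3% of all genes tested reached that level. The sort itself was visible in the libraries: Ly6c1 and Ly6c2, the close-copy genes of the sorted protein, were higher in Ly6C-high cells with log2 fold changes of 3.07 and 2.9 (adjusted p 0.00273 and 0.00382; 0.0620 and 0.0885 without Ly6C-low replicate 3).

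Fcgr2b had the clearest difference of the 6. Its normalised count was 43.7, 47.8 and 45.9 CPM (counts scaled to a common library size with TMM) in Ly6C-high replicates 1, 2 and 3, against 38.4, 36.7 and 34.0 CPM in Ly6C-low replicates 1, 2 and 3. All 3 Ly6C-high libraries lay above all 3 Ly6C-low libraries. The groups stood apart in this way, in either direction, in 21.1% of all genes tested. The log2 fold change came to 0.33 ± 0.09 (SE), a 1.26-fold difference with a 95% interval of 1.09 to 1.45. The adjusted p was 0.196, so the difference did not pass. It rested on 641 to 937 estimated counts per library. An antisense gene, Gm38204, overlaps Fcgr2b over 3175 bases and had 0 transcripts among those matched. It shared only 126 of the 5609 words in the Fcgr2b transcripts (2.25%). With no strand setting given, reads of Gm38204 within that shared part cannot be told apart from those of Fcgr2b.

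Of the activating chains, Fcgr3 measured 732, 742 and 758 CPM in the Ly6C-high libraries, against 720, 671 and 596 CPM in Ly6C-low libraries. The groups did not overlap, although Ly6C-low replicate 1 came close to the lowest Ly6C-high library, and in TPM the groups did overlap. The log2 fold change came to 0.17 ± 0.10 (SE) (adjusted p 0.479), and 0.10 without Ly6C-low replicate 3, a library that stood apart from the rest on the first principal component (38.0, where the others lay between -19.6 and 3.91). Fcgr4 measured 279, 249 and 245 CPM in the Ly6C-high libraries, against 282, 270 and 277 CPM in Ly6C-low libraries. Here the Ly6C-high libraries were spread more widely, 1 of them within the Ly6C-low range, and the log2 fold change came to -0.10 ± 0.09 (SE) (adjusted p 0.649). It was -0.16 without Ly6C-high replicate 1 and -0.065 without Ly6C-high replicate 3. In TPM the Fcgr4 groups did not overlap, at 278, 252 and 250 TPM in Ly6C-high libraries, against 298, 289 and 305 TPM in Ly6C-low libraries. With scaling by library size alone, which takes the median of all genes to -0.11, the log2 fold change of Fcgr4 was -0.21 (adjusted p 0.241).

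Fcer1g, the chain the activating receptors share, measured 538, 533 and 537 CPM in the Ly6C-high libraries, against 576, 532 and 479 CPM in Ly6C-low libraries. The Ly6C-low libraries lay on both sides of the tightly grouped Ly6C-high ones. Its log2 fold change of 0.019 (standard error 0.10, adjusted p 0.949) turned to -0.084 with scaling by library size alone and to -0.046 without Ly6C-low replicate 3. The 95% interval of Fcer1g ran from 0.874-fold to 1.18-fold.

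**Figure D2:**
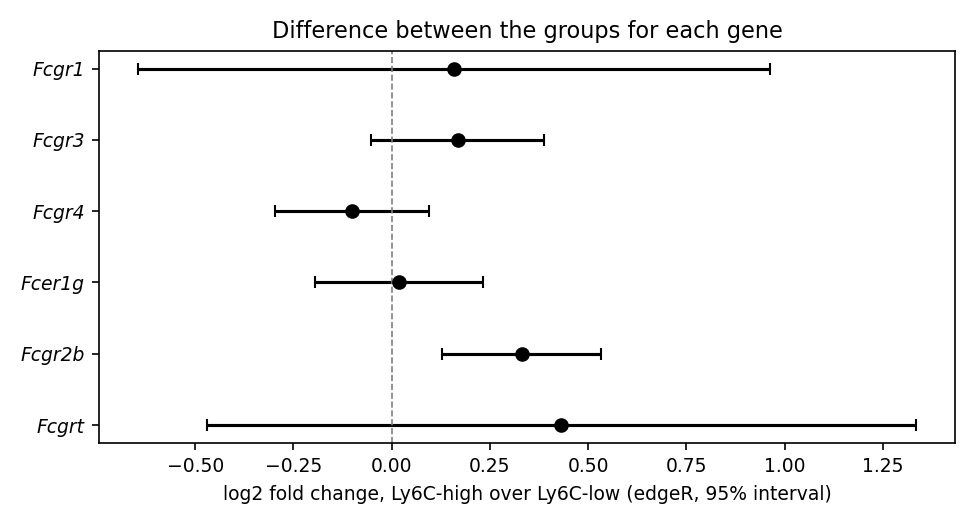
Log2 fold change of each gene, Ly6C-high over Ly6C-low, from edgeR, with its 95% interval (3 libraries a group). The interval of Fcgr2b, 0.13 to 0.53, lies above 0 before adjustment for the number of genes tested, while those of the other 5 genes cross 0 and those of Fcgr1 and Fcgrt are the widest.

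Fcgr1 gave 17, 15 and 16 counts in the Ly6C-high libraries, against 18, 15 and 10 in the Ly6C-low libraries. This gene, induced by interferon gamma and typical of monocytes and macrophages, averaged 0.827 ± 0.0626 CPM in Ly6C-high cells and 0.738 ± 0.189 CPM in Ly6C-low cells, and its log2 fold change of 0.16 had a standard error of 0.37 (adjusted p 0.874). The value turned to -0.13 with length-scaled TPM, where 1.7 of the 10 counts of Ly6C-low replicate 3 lay on a short transcript, and to -0.026 without Ly6C-low replicate 3. At this depth a 95% interval from 0.639-fold to 1.95-fold remained.

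Fcgrt gave 22, 21 and 42 counts in the Ly6C-high libraries, against 12, 18 and 32 in the Ly6C-low libraries. Replicate 3 was the highest of each group, the groups overlapped, and the log2 fold change came to 0.43 ± 0.41 (SE) (adjusted p 0.667). Without Ly6C-high replicate 3 it was 0.087, and without Ly6C-low replicate 3 it was 0.91. These counts were hardly from protein-coding transcripts. The 4 coding transcripts of Fcgrt together held 1.1, 0.0 and 1.0 estimated counts in the Ly6C-high and 0.0, 0.0 and 2.1 in the Ly6C-low libraries, and between 93.5% and 100% of the gene's counts were assigned to a single transcript with a retained intron. An antisense gene, Gm45669, overlaps Fcgrt over 5331 bases and had 0 transcripts among those matched. All other genes together shared 40 of the 2126 words in the Fcgrt transcripts (1.88%). The strand limit given for Fcgr2b thus holds here within that shared part at most.

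Ratios within a library do not depend on how libraries are scaled, and they were used to set the activating against the inhibitory members. The summed TPM of Fcgr1, Fcgr3 and Fcgr4 exceeded that of Fcgr2b by 29.5, 24.9 and 26.4 times in the Ly6C-high libraries, against 32.2, 31.6 and 31.4 times in the Ly6C-low libraries. The means were 26.9 ± 2.35 in Ly6C-high and 31.7 ± 0.422 in Ly6C-low libraries (SD, n = 3 each). All 3 Ly6C-high libraries lay below all 3 Ly6C-low libraries, a ratio of 0.847 between the groups. The two-sided exact permutation p was 0.1, the smallest that 3 against 3 libraries allow, and 0.125 when adjusted over the 5 derived values compared, so the design cannot take this difference past 0.05.

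Fcgr4 relative to Fcgr3 was also lower in each Ly6C-high library. Fcgr4 over Fcgr3 was 0.414, 0.363 and 0.35 in the Ly6C-high libraries, against 0.425, 0.435 and 0.503 in the Ly6C-low libraries. The groups did not overlap, but Ly6C-high replicate 1 lay close to Ly6C-low replicate 1. The log2 difference was -0.27 (exact permutation p 0.1, adjusted 0.125), and -0.20 without Ly6C-low replicate 3, the smallest value with any 1 library left out. Fcgr3 over Fcgr2b was 19.6 ± 1.30 in the Ly6C-high and 21.8 ± 0.861 in the Ly6C-low libraries, and Fcer1g over the summed activating chains was 1.33 ± 0.0108 in Ly6C-high and 1.40 ± 0.0292 in Ly6C-low libraries (SD, n = 3 each). Both were lower in each Ly6C-high library than in any Ly6C-low library, by log2 differences of -0.16 and -0.064, with the same exact permutation p of 0.1. All of these ratios share genes, Fcgr3 being part of each, so they are not separate results. Among single genes, the groups stood apart, in either direction, in 21.1% of all genes tested. The sum of Fcgr2b and Fcgr3, which depends little on how shared reads were divided, was 729 ± 24.4 TPM in Ly6C-high and 688 ± 49.3 TPM in Ly6C-low libraries, overlapped between the groups and had an exact permutation p of 0.3.

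**Figure D3:**
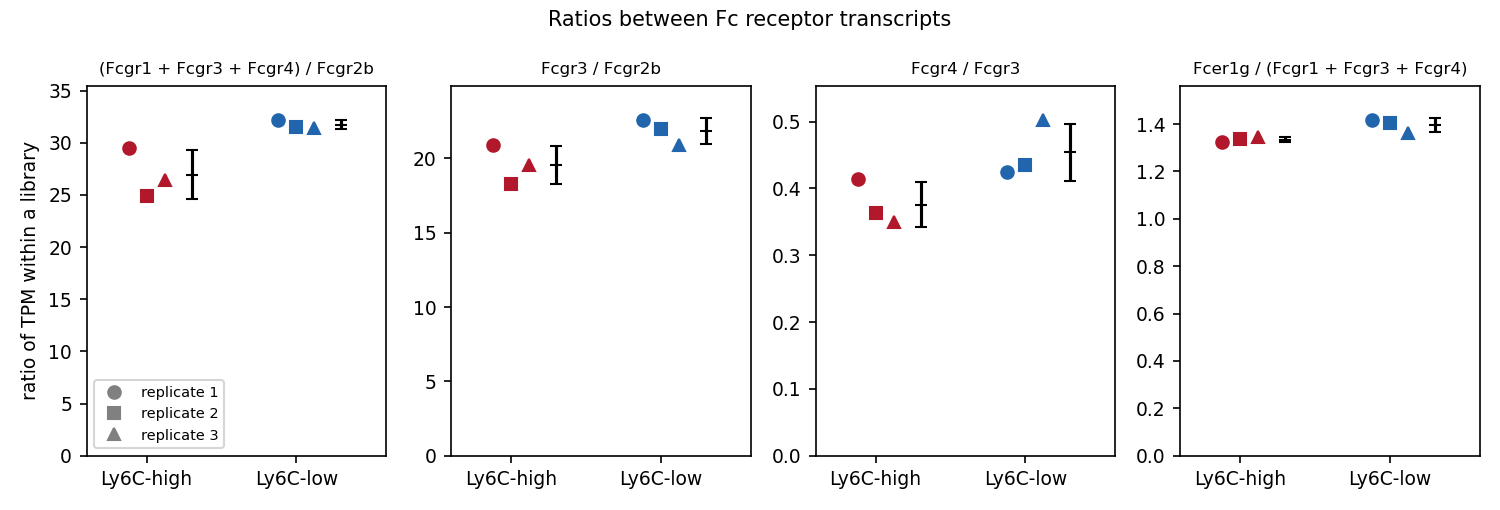
Ratios of TPM within each library (axes start at 0), with Ly6C-high left of Ly6C-low, symbols for the replicate numbers, and the mean with 1 SD beside the points (n = 3 each). In all 4 panels the Ly6C-high points lie below the Ly6C-low points, with means for activating over inhibitory transcripts of 26.9 in Ly6C-high and 31.7 in Ly6C-low libraries. The panels share genes, Fcgr3 being part of each, so they are not independent of one another.

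Fcgr2b transcripts differ in their cytoplasmic tail. The longest coding form has an insert of 47 codons, starting at codon 253, that the shortest form lacks, and an intermediate form keeps 19 of them. The form with the whole insert is best known from B cells and the one without it from myeloid cells. The form without an insert held 58.8% ± 0.8 of the coding TPM of these forms in the Ly6C-high and 62.8% ± 3.6 in Ly6C-low libraries (SD, n = 3 each). The 19-codon form held 27.7% ± 1.4 in Ly6C-high and 25.2% ± 2.5 in Ly6C-low libraries, and the full insert 13.5% ± 2.2 in Ly6C-high and 12% ± 2.4 in Ly6C-low libraries. The groups overlapped for each form. The whole B cell marker list, in which 10 of 10 genes were detected in every library, summed to between 11.0 and 14.4 TPM in the Ly6C-high and between 11.2 and 15.0 TPM in the Ly6C-low libraries, led by Ighm and Bank1. Fcgr3 was mostly a single coding transcript of 801 coding bases, at a mean of 518 TPM, with a second of 798 coding bases at 148 TPM.

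Cells other than neutrophils also carry these receptors, so their markers were read in the same libraries. In bulk RNA, fewer cells of a type and less RNA per cell cannot be told apart. Neutrophil markers, led by S100a9 and S100a8, were present in all libraries (10 of 10 genes) and summed to between 376600 and 380900 TPM in the Ly6C-high, and between 343700 and 362900 TPM in the Ly6C-low libraries. The 10 monocyte markers, led by Csf1r and Ctss, summed to between 144 and 146 TPM in the Ly6C-high and between 166 and 183 TPM in the Ly6C-low libraries. Csf1r was 95.2, 98.9 and 97.1 TPM in the Ly6C-high, and 125, 117 and 110 TPM in the Ly6C-low libraries, with 6 of the 10 markers below 1 TPM on average. Eosinophil markers, led by Siglecf and Ear2, likewise did not overlap, with sums between 18.9 and 23.8 TPM in the Ly6C-high and between 37.9 and 42.2 TPM in the Ly6C-low libraries. These markers and the Fcgr4 to Fcgr3 ratio were thus all lower in the Ly6C-high libraries, and the part of such cells in the ratio was not tested. For macrophages the complement genes C1qa, C1qb and C1qc were at 0 in all libraries, and the 8 markers, led by Adgre1 and Axl, summed to between 4.92 and 6.27 TPM in the Ly6C-high and between 4.38 and 7.72 TPM in the Ly6C-low libraries. NK cell markers, led by Gzma and Ncr1, summed to between 2.25 and 4.21 TPM in the Ly6C-high libraries, all above the Ly6C-low libraries, which held 2.14 TPM or less, with Klra8 at 0. These sums lay near the floor, with 7 of the 8 markers below 1 TPM on average, and Gzma itself overlapped between the groups. NK cells also express Fcgr3, and the part of such cells in its values was not tested.

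The summed levels of the remaining lists overlapped between the groups. Dendritic cell markers, led by Itgax and Bst2, summed to between 7.84 and 11.8 TPM in the Ly6C-high and between 10.9 and 18.5 TPM in the Ly6C-low libraries. For T cells, led by Cd3d and Trbc2, the sums ran between 30.8 and 48.8 TPM in Ly6C-high and between 26.1 and 37.7 TPM in Ly6C-low libraries. These sums were nearly all Cd3d, at a mean of 33.6 TPM, and 7 of the 8 T cell markers lay below 1 TPM on average. Basophil and mast cell markers, led by Hdc and Kit, ran between 698 and 902 TPM in Ly6C-high and between 582 and 766 TPM in Ly6C-low libraries. That sum was nearly all Hdc, at a mean of 697 TPM. Of the 8 genes of this list, 3 rarer ones were lower in every Ly6C-high library than in any Ly6C-low library. The others overlapped between the groups. Across all genes tested, the groups stood apart, in either direction, in 21.1%. Mcpt8, a basophil protease, had 0.897, 1.35 and 1.16 TPM in Ly6C-high libraries, against 3.74, 6.96 and 15.2 TPM in Ly6C-low libraries. Prss34 lay between 0.436 and 1.12 TPM in Ly6C-high and between 1.47 and 3.94 TPM in Ly6C-low libraries, and Cpa3 between 0.397 and 0.545 TPM in Ly6C-high and between 0.62 and 3.24 TPM in Ly6C-low libraries. Basophils also carry Fcer1g and Fc gamma receptors, and their part in the values of the 6 genes was not tested. Platelet markers, led by Pf4 and Ppbp, ran between 9.37 and 26.4 TPM over the 6 libraries, and erythroid genes, led by Hbb-bs and Hba-a2, between 685 and 2422 TPM in Ly6C-high and between 1729 and 2505 TPM in Ly6C-low libraries.

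Downstream of the receptors stand the kinases and adaptors of activating signalling, of which 23 of 24 genes were tested and 0 passed. Of the 23, 20 lay above 0 in log2 fold change; their median was 0.11, against -0.004 over all genes tested, and 3 had an unadjusted p under 0.05, a level that 14.3% of all genes tested reached. Lyn, a Src-family kinase that phosphorylates the ITAM, had a value of 0.24 with a standard error of 0.10 (adjusted p 0.3). Lyn measured 997 ± 16.3 CPM in Ly6C-high cells and 842 ± 62.3 CPM in Ly6C-low cells. Btk, a Tec-family kinase, had a log2 fold change of 0.19 (adjusted p 0.339). The most abundant members by TPM were Tyrobp, an ITAM adaptor related to Fcer1g, at a mean of 2269 TPM over the 6 libraries, and the GTPase genes Rac2 and Rac1, at 1248 and 516 TPM.

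Inhibitory signalling genes, the phosphatases, adaptors and ubiquitin ligases that limit the response, did not pass either, with 0 of 15. Their median log2 fold change was 0.073, 13 of 15 lay above 0, and 1 had an unadjusted p under 0.05. Dok1, an adaptor that dampens tyrosine kinase signalling, measured 11.4 ± 1.34 CPM in Ly6C-high cells and 15.2 ± 0.247 CPM in Ly6C-low cells, a log2 fold change of -0.42 ± 0.12 (SE) (adjusted p 0.214) in groups that did not overlap. Its relative Dok2 lay above 0, at 0.40 with a standard error of 0.18 (adjusted p 0.364), and at 0.20 without Ly6C-low replicate 3. Cbl, a ubiquitin ligase, lay at 0.27 (adjusted p 0.35). Lilrb4a, Ptpn6 and Pirb were the most abundant, at means of 363, 262 and 227 TPM. Inpp5d, the phosphatase recruited by Fcgr2b, averaged 69.1 TPM over the 6 libraries.

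**Figure D4:**
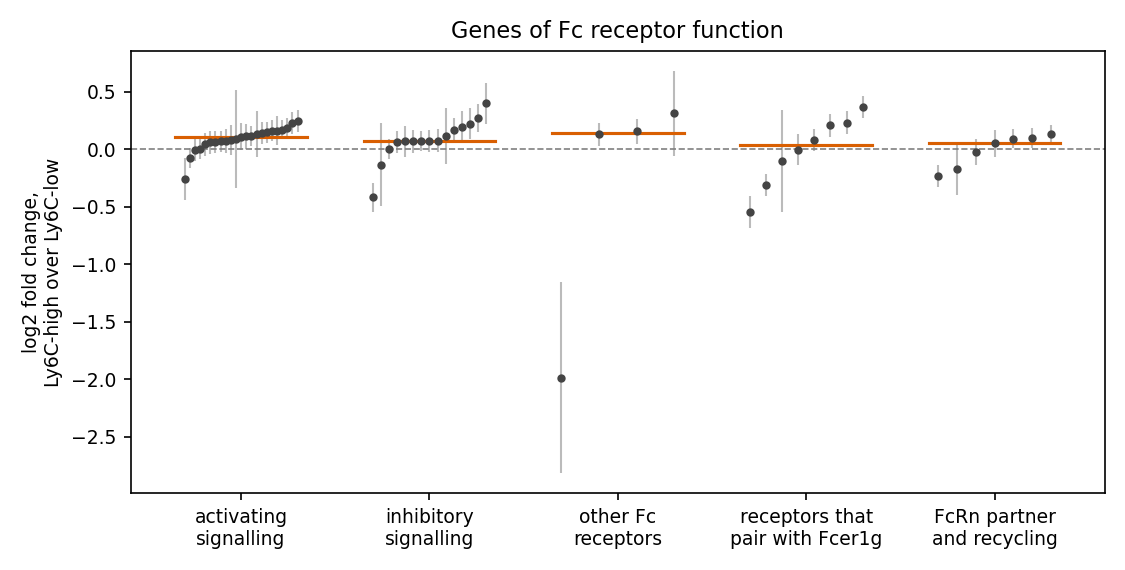
Log2 fold change (points) with its standard error (bars), Ly6C-high over Ly6C-low, of every tested gene in 5 lists of Fc receptor function, with the median of each list as an orange line. Most points lie within 0.5 of 0, and the lowest is Ms4a2 at -1.99.

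Receptors that also signal through Fcer1g were split, with 4 of the 8 tested above 0 and 4 below, a median of 0.040 and 0 past the threshold. Of the 8, 4 had an unadjusted p under 0.05, against 14.3% of all genes tested. Of the 16 genes listed 12 matched a quantified gene. Clec4n, which encodes Dectin-2, a receptor for fungal mannans, measured 10.1 ± 1.42 CPM in Ly6C-high cells and 14.7 ± 0.970 CPM in Ly6C-low cells, with a log2 fold change of -0.54 ± 0.14 (SE) (adjusted p 0.192). Cd300c2 had a value of -0.31 (adjusted p 0.231). Lilra6, a paired immunoglobulin-like receptor, lay the other way, at 97.3 ± 8.70 CPM in Ly6C-high cells and 75.5 ± 2.52 CPM in Ly6C-low cells, with a log2 fold change of 0.37 ± 0.09 (SE) (adjusted p 0.192). For each of these 3 genes the groups did not overlap, as for 21.1% of all genes tested. Paired immunoglobulin-like receptors are a family of close copies, so the count of a single member is uncertain. The most abundant were Clec4d, Clec4e and Pira2, at means of 602, 388 and 240 TPM.

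Other receptors for immunoglobulin were mostly at the floor of detection. Of 13 genes 4 passed the filter, and 0 passed the test or reached an unadjusted p under 0.05; the median log2 fold change of the 4 was 0.14. Ms4a2, the beta chain of the IgE receptor of basophils and mast cells, measured 0.574 ± 0.367 CPM in Ly6C-high cells and 2.33 ± 2.14 CPM in Ly6C-low cells, a log2 fold change of -1.99 ± 0.83 (SE) (adjusted p 0.35). Leaving out Ly6C-low replicate 3 gave -0.95, and without a filter on low counts its adjusted p was 0.0207. Its level was 0.194, 0.475 and 0.917 TPM in the Ly6C-high, and 0.410, 1.22 and 3.96 TPM in the Ly6C-low libraries, so the Ly6C-low mean rested on replicate 3. Fcer1a, which encodes the ligand-binding chain of the same receptor, was also highest in that library, at 3.13 TPM, against 0.974 TPM or less in the other libraries. Both genes belong to the basophil and mast cell marker list, and the part of such cells was not tested. Trim21, the cytosolic receptor for antibody, and Fcrl1, of the Fc receptor-like family, had log2 fold changes of 0.15 and 0.13 (adjusted p 0.565 and 0.587).

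Of FcRn's partner and the genes of recycling endosomes 7 of 8 were tested, 0 passed and 1 had an unadjusted p under 0.05, with a median log2 fold change of 0.052. B2m, the light chain of FcRn and of MHC class I, averaged 1579 TPM, far above the level of Fcgrt itself, and Rab11a and Rab11fip1, which act in recycling, averaged 225 and 101 TPM. Rab11fip5 had a log2 fold change of -0.23 ± 0.10 (SE) (adjusted p 0.317), Snx4 one of 0.13 (adjusted p 0.529), and Rab5a one of 0.098, which turned to -0.011 with scaling by library size alone. With limma voom the count of genes called was 0 in each of these 5 lists, and with DESeq2 it was 0 among the genes given an adjusted p, which Ms4a2 was not.

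The genes whose pattern over the 6 libraries lay nearest to each member were found by the root mean square difference of log2 CPM deviations, over 7082 protein-coding genes of at least 5 CPM. For Fcgr2b they were Klhl6, Sp110 and Ttc7b, at 0.018, 0.019 and 0.032, where its own root mean square deviation was 0.178. For Fcgr3 they were S100a6, Ube2f and Hp (0.019 to 0.022), for Fcgr4 U2surp, Dnttip2 and Grsf1 (0.014 to 0.018), and for Fcer1g Klf13, Atp6ap1 and Htatip2 (0.016 to 0.022). The low counts of Fcgr1 and Fcgrt gave looser neighbours, mt-Nd5, Csf2rb2 and Fabp5 at 0.035 to 0.046 and Olfr624, Zc3h11a and Olfr784 at 0.194 to 0.206. No member was among the nearest of another, but Fcgr1 and Fcgrt lay below 5 CPM and so were not among the genes searched.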

How the data were processed

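Each library was one table of estimated counts and TPM per transcript, deposited by the authors and made with kallisto, with the build GRCm39 named, per the submitters' processing notes. The kallisto version, the index and the strand setting were not given in the sources used here. Totals of the deposited estimated counts ran between 17192372 and 20973623 per library; the authors' TPM sum to a fixed total in each. Libraries were poly(A)-selected, strand-marked and read for 75 cycles, per the labels' protocols. Intervals cover the spread between libraries. No molecular identifiers are described.

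Transcripts were assigned to genes with GENCODE M21 by identifier without version (99.04% of 117486 matched). Since that annotation is on GRCm38, positions are left out; it is of the C57BL/6J strain; the part of strain differences in the values was not tested. Estimated counts were summed per gene and rounded. edgeR 4.0.16 in R 4.3.3 was used with filterByExpr, TMM, robust dispersions (common biological coefficient of variation 13.7%) and the quasi-likelihood test, with Benjamini-Hochberg adjustment over all genes kept. The fit was first tested on simulated data. Ratios of TPM were compared with exact two-sided permutation tests (scipy 1.17.1).

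The members and lists were chosen with earlier results of these data known. Of each list the 3 genes with the smallest p and the 3 most abundant were named, of each marker list the 2 most abundant, and for each member the 3 nearest genes; Inpp5d, Fcer1a, Mcpt8, Prss34, Cpa3 and the marker genes at 0 were named outside this rule, after their values were seen. A gene of the activating signalling list that the rule names is not reported here. Alternatives were a replicate block, DESeq2 1.42.0 size factors, library size alone, no filter, a mean count of 10, the DESeq2 test, limma 3.58.1 voom, length-scaled TPM, protein-coding genes or transcripts alone, CPM for the ratios, and each library left out. The chi-square per gene between replicate libraries lay between 14.3 and 48.2, so none was counted as a copy of another.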

Additional observations from a re-analysis of the deposited data

How the results depend on the processing

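The count of 0 called among the 6 Fc receptor genes was the same in the 15 alternatives tried, and Fcgr2b alone had an unadjusted p under 0.05 in 14 of them (scaling by library size alone added Fcgr4). The log2 fold change of Fcgr2b lay between 0.23 and 0.37, with adjusted p between 0.0996 and 0.571. The 4 ratios kept their direction in every alternative run, the activating to inhibitory ratio between -0.31 and -0.18 (log2). Directions turned for Fcgr1 (-0.13 with length-scaled TPM; between -0.026 and 0.32 with 1 library left out), Fcer1g (-0.084 with library size alone; between -0.046 and 0.081 with 1 left out) and Rab5a (-0.011 with library size alone). Scaling by library size alone moved the median of all genes by -0.11. The count of all genes called was 61 with the replicate block, 8 with library size alone, 439 without a filter, 110 with DESeq2, 2 with length-scaled TPM, and between 2 and 22 with 1 library left out. Without a filter 1 inhibitory signalling gene, 2 other Fc receptor genes and 2 receptors that pair with Fcer1g were called, and with the replicate block 1 other Fc receptor gene, Ms4a2 (adjusted p 0.0368). The cause of these changes was not tested. Same-numbered libraries deviated together with correlations of 0.24, -0.037 and 0.24 over 11406 genes, and Ly6C-high replicate 2 was nearest to Ly6C-low replicate 1, so the numbers were not taken to pair the samples. Depth limits Fcgr1 and Fcgrt, at 10 to 42 counts.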

Other observations

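Transcripts annotated with a retained intron held a larger share of counts in replicate 3 of each group, for the receptors as for the libraries as a whole. For Fcgr2b the share was 2.96%, 1.62% and 5.50% of the gene's counts in Ly6C-high replicates 1, 2 and 3, and 2.05%, 1.59% and 7.85% in Ly6C-low replicates 1, 2 and 3. For Fcgr3 it was 0.55%, 1.11% and 2.13% in the Ly6C-high, and 0.63%, 1.24% and 1.57% in the Ly6C-low libraries, and for Fcer1g 0.11%, 0.20% and 0.33%, and 0.12%, 0.27% and 0.56%. Over all transcripts it was 2.06%, 2.31% and 2.99% in the Ly6C-high, and 2.22%, 2.39% and 3.26% in the Ly6C-low libraries. Fcgrt, whose counts came almost wholly from such a transcript, was likewise highest in replicate 3 of each group.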
